A study of Mus musculus with 96 samples.

Results

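Trp53, the gene for the p53 protein, and 8 genes that control p53 or are induced by it were examined in single mouse bone marrow cells. The 9 genes were taken as a list of symbols (Trp53, Mdm2, Mdm4, Cdkn1a, Bax, Ccng1, Phlda3, Rps27l and Btg2) and all 9 were among the 24321 gene symbols measured. The cells, 96 in number, carried 1 label, erythroid precursor from the marrow of C57BL/6 mice of genotype Rpl11 +/lox, in which one copy of the gene for ribosomal protein L11 is a lox allele. The series describes cells from the early burst-forming progenitor to the basophilic erythroblast of Rpl11 haploinsufficient animals. Each cell was captured in a chamber of a Fluidigm C1 chip, imaged for Ter119, a surface protein of erythroblasts, and read by SMART-Seq amplification of its mRNA. Wild-type cells, a Cre driver, the age of the mice and the animal of each cell are not named in the labels, so all cells count as 1 sample, no test was possible, and every difference below is between groups of cells within that sample.

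p53 is a transcription factor that is kept scarce in unstressed cells, because Mdm2 tags it for degradation and the related protein Mdm4 holds down its activity. When ribosome assembly fails, free ribosomal proteins L11 and L5, bound to 5S ribosomal RNA, hold Mdm2 back and p53 accumulates, a route studied in red cell precursors because of anaemias with ribosomal protein mutations. Accumulated p53 switches on genes of cell cycle arrest (Cdkn1a, Ccng1, Btg2), of apoptosis (Bax, Phlda3), of the ribosomal protein family (Rps27l) and its own inhibitor Mdm2, and since p53 is controlled mostly as a protein, the amount of Trp53 mRNA does not give the amount of p53.

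The promoter sequences of the 9 genes are shown first because p53 acts on its targets through a pair of half-sites, which are short palindromic DNA motifs. Promoter windows of RefSeq (build GRCm38.p6, from 250 bases before to 50 bases after a transcript start) gave 12 windows for the 9 genes. The p53 half-site consensus, searched by its standard degenerate form, reads the same on both strands and does not overlap any other motif searched. It matched in 6 windows, which belong to 6 of the 9 genes, and in 8.36% of all 32851 windows of the same length. These are the matches, in capitals, with 10 bases on each side, each given with the position of its first base counted from the transcript start:
Trp53, -75, chr11:69580274-69580303, plus strand: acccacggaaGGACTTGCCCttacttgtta
Mdm2, -186, chr10:117710925-117710954, minus strand: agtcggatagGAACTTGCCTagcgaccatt
Bax, -201, chr7:45467080-45467109, minus strand: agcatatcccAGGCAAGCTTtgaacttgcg
Ccng1, -185, chr11:40755452-40755481, minus strand: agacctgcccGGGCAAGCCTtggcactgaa
Rps27l, -210, chr9:66946193-66946222, plus strand: ctttgggctcGGGCTTGCTTtccttcaggc
Rps27l, -107, chr9:66946296-66946325, plus strand: gggcttgttgAGACTTGTCCgggcgacacg
The windows of Mdm4, Phlda3 and Btg2 held no match, which says only that these letters are not in those 300-base windows.

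A pair of half-sites 0 to 13 bases apart, the arrangement of a full p53 element, was found in 24 of the 32851 windows (0.0731%). One of them lies before the upstream start of Cdkn1a, where the matches at -73 and -51 are 12 bases apart. The search allowed no mismatch. The bases directly after the match at -51, tgacatgttc, differ from the consensus only in their first letter. Which of these stretches p53 binds as a pair was not tested. The other Cdkn1a start lies 2790 bases downstream and its window held no match. The 250 bases before the upstream start, with both matches in capitals, are on the plus strand at chr17:29090729-29090978 of GRCm38.p6:
Cdkn1a: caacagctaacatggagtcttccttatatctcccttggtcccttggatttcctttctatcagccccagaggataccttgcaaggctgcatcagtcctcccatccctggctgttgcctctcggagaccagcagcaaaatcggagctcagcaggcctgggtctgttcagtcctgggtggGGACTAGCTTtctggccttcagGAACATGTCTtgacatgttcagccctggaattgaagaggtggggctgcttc

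A second pair of sequences bears on how far Rps27l can be measured, since it is a close relative of the ribosomal protein gene Rps27. Both coding sequences are 255 bases long (GENCODE annotation on GRCm38) and differ at 61 bases, shown in capitals, which leaves 76.1% identity and a longest identical run of 11 bases:
Rps27l: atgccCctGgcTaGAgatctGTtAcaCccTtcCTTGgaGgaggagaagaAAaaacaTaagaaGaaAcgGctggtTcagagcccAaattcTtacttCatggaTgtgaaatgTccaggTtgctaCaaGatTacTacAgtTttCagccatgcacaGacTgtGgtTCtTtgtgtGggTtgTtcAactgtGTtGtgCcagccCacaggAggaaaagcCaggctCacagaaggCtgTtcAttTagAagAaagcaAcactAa
Rps27: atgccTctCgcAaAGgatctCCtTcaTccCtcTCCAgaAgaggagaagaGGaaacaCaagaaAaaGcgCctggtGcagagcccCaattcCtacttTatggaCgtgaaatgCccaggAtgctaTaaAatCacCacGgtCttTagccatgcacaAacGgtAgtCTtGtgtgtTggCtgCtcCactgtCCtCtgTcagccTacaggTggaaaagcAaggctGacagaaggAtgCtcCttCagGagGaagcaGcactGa
Any stretch of the coding sequence longer than that run holds a difference. The annotation also lists pseudogenes of Trp53 and of Rps27, and how reads with several matches were counted is not stated, so these values are uncertain to that extent. For 2 other genes an overlap on the GRCm38 annotation limits the values: 273 exon bases of Cdkn1a are shared with an antisense transcript on the opposite strand and 192 exon bases of Bax with a transcript on the same strand, and whether strand was used in counting is not stated.

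The cells were grouped by Hba-a1, an alpha-globin gene whose mRNA accumulates as red cell precursors mature. A cell needed at least 1000 genes at 1 RPKM or more (the read number divided by transcript length in kilobases and by library size in units of 1000000), which left out 27 cells, and 3 more with markers of other lineages were set aside. The groups were low Hba-a1 (under 100000 RPKM, 9 cells), middle (100000 to under 400000 RPKM, 20 cells), high (400000 RPKM or more, 28 cells) and Mpo-high (Mpo, the neutrophil granule enzyme myeloperoxidase, at 1000 RPKM or more with Hba-a1 under 100000 RPKM, 9 cells). The highest low cell had 76269 RPKM of Hba-a1, the middle cells ran from 129407 to 374528 RPKM, and the lowest high cell had 402294 RPKM. Genes detected per cell became fewer in this order, from a median of 4275 in low cells (3359 to 5507) to 2744 in middle cells (1184 to 3830) and 1412.5 in high cells (1003 to 2052), and were 4900 in Mpo-high cells (1842 to 6013). Depth, estimated in units of 1000 reads or read pairs, moved the other way, with medians of 5038 in low, 6624 in middle, 7662.5 in high and 4957 in Mpo-high cells. The RPKM of all genes in a cell summed to medians of 682827 in low, 1552960 in middle, 2448510 in high and 603340 in Mpo-high cells. Depth for mRNA other than globin was not estimated.

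The label was checked against markers. In 6 of the 9 low cells the erythroid genes Gata1 (109 to 262 RPKM), Klf1 (513 to 883 RPKM) and Car1 (2553 to 6774 RPKM) were all present. The other 3 low cells (cells 3, 60 and 68) listed Gata1 at 0 and Klf1 and Car1 below 1 RPKM, and carried Plac8 at 3843 to 4499 RPKM, so their markers go against the label. Their other markers were mixed. The neutrophil gene Prtn3 was at 94.0 to 430 RPKM in all 3, but Elane and Ctsg reached 1 RPKM in 1 each. The monocyte gene Irf8 did so in 2, at up to 815 RPKM. At 10 RPKM or more these cells had 1 to 4 of 13 neutrophil and 2 to 6 of 13 monocyte markers. Mpo-high cells had Gata1 and Klf1 below 1 RPKM in all 9, Car1 in 1 (49.3 RPKM) and Mpo at 1543 to 18579 RPKM. Kit, a receptor of early progenitors, was at 1 RPKM or more in 0 of the 57 low, middle and high cells. Results that rest on low cells are given with all 9 and with the 6 that have erythroid markers, a split chosen after the values were seen.

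**Figure D1:**
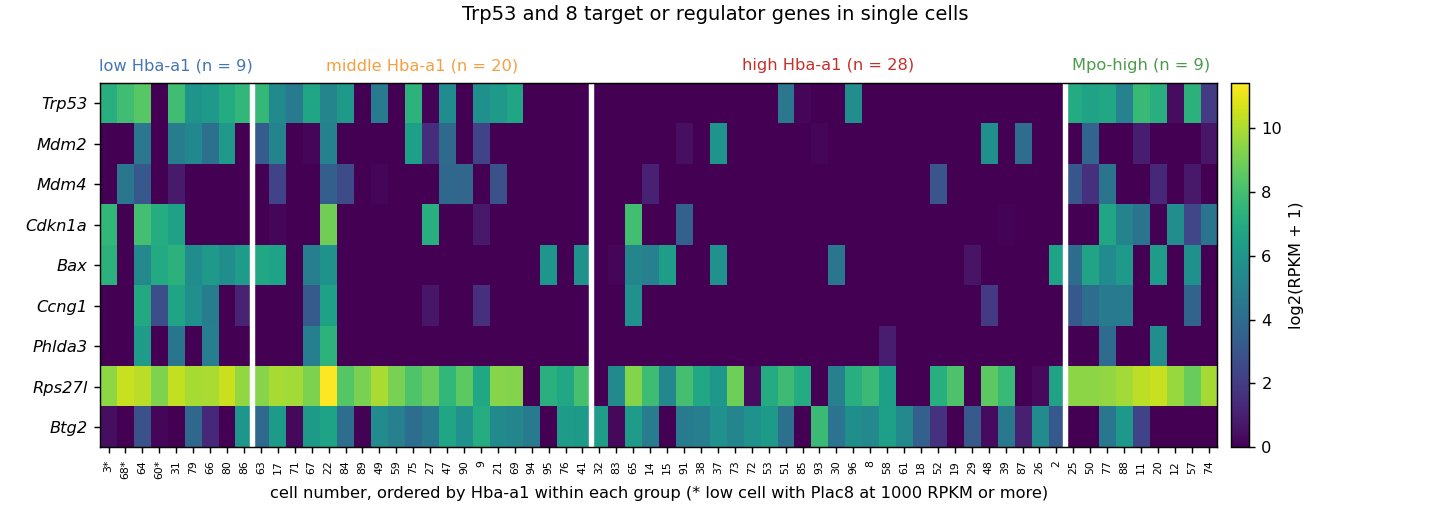
Heat map of log2(RPKM + 1) of the 9 genes (vertical axis) in 66 cells (horizontal axis), ordered by Hba-a1 within each group; stars mark the 3 low cells with Plac8 at 1000 RPKM or more. Trp53 is filled in most low and Mpo-high cells and in 2 of 28 high cells, Rps27l in nearly all columns, and cells 22 and 64 are filled for all 9 genes.

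Trp53 mRNA was present in nearly all cells with little globin mRNA and in few cells with much of it. In the 6 low cells with erythroid markers it was at 58.6, 70.1, 128, 187, 239 and 349 RPKM, and in the other 3 low cells at 0, 141 and 240 RPKM. In middle cells it ran from 0 to 192 RPKM with a median of 30.4 RPKM. It was at 1 RPKM or more, called detected from here on, in 12 of these 20 cells (60.0%, with a 95% Clopper-Pearson interval of 36.1% to 80.9%), and was 0 in each of the 4 with the most Hba-a1. In high cells it was detected in 2 of 28 (7.14%, 0.877% to 23.5%), at 21.9 and 46.5 RPKM, so no high cell reached the lowest of the 6 erythroid low cells. The share of all genes separated like this was not counted. In Mpo-high cells Trp53 was at 0.29 and 2.89 RPKM in 2 cells and at 32.0 to 205 RPKM in the other 7.

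On the scale of mean log2(RPKM + 1), Trp53 stood at 6.45 ± 2.56 in low cells (SD over the 9 cells), 5.56 ± 2.63 in Mpo-high cells (9 cells), 3.60 ± 3.10 in middle cells (20 cells) and 0.37 ± 1.33 in high cells (28 cells). Low and Mpo-high cells, neighbours in this order, were closer than 1 SD over cells. The 6 low cells with erythroid markers had 7.16 ± 1.00. The difference of high from low cells was -6.08 on this log2 scale. It was -5.87 within run code SCP-1706013 and -5.63 within SCP-170608, and the third code, SCP-1706080, held 2 low cells. These 3 codes stand in the sample descriptions, while all 96 titles carry SCP-1706080, and whether the codes mark separate runs is not stated. With the 6 erythroid low cells the difference was -6.80.

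**Figure D2:**
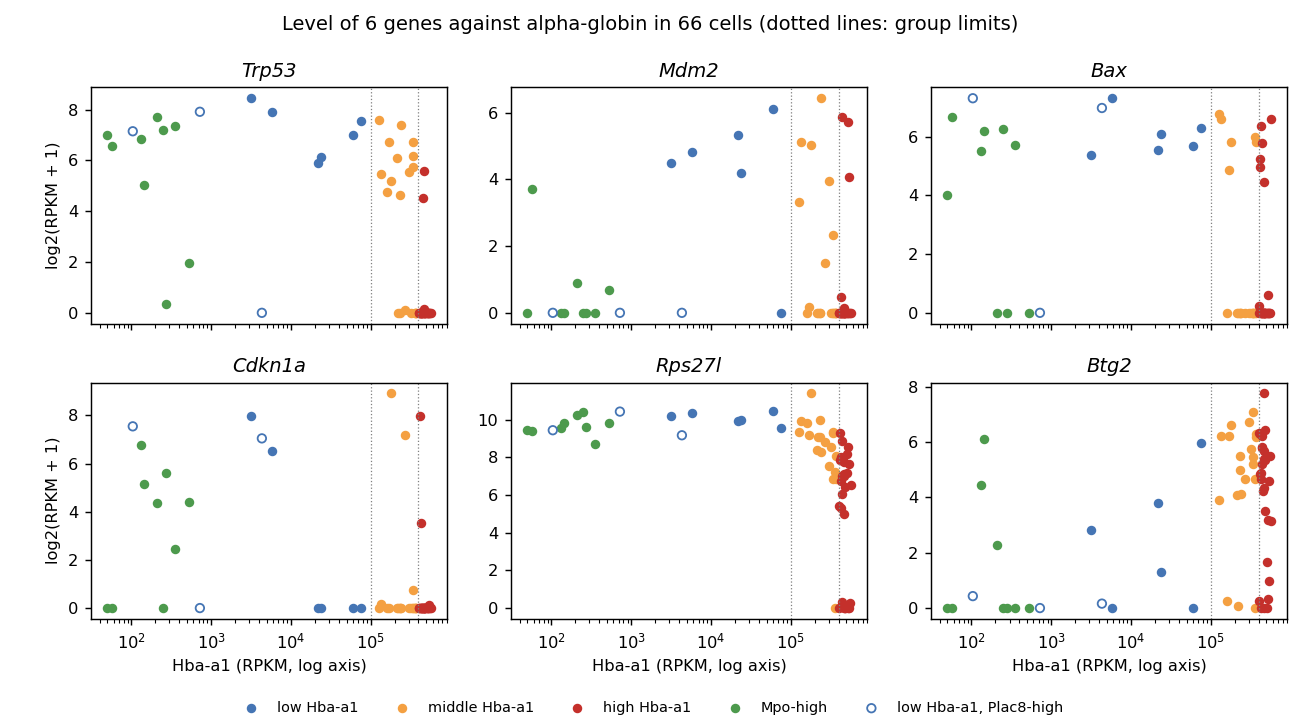
log2(RPKM + 1) of 6 genes (vertical axes) against Hba-a1 in RPKM (horizontal log axis) in 66 cells, coloured by group, with open circles for the 3 low cells with Plac8 at 1000 RPKM or more and dotted lines at the group limits. Trp53 and Mdm2 are mostly 0 at the right end, Rps27l declines within the middle and high cells, and Btg2 is highest there.

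The inhibitors of p53 were seen in fewer cells. Mdm2, the ubiquitin ligase of p53 and itself a p53 target, was at 17.4, 21.6, 27.4, 39.1 and 67.8 RPKM in 5 of the 6 erythroid low cells and at 0 in the sixth and in all 3 low cells with Plac8. It was detected in 7 of 20 middle cells (35.0%, 15.4% to 59.2%), at 1.79 to 85.9 RPKM, and in 3 of 28 high cells (10.7%, 2.27% to 28.2%), at 16.0, 52.0 and 58.2 RPKM. The values of detected cells thus overlapped between all 3 erythroid groups, and what differed was the share of cells. Among Mpo-high cells 1 of 9 had Mdm2 (11.1%, 0.281% to 48.2%), cell 50 at 12.2 RPKM. Cells 74 and 11 had it at 0.62 and 0.87 RPKM. The share was 5 of 6 in erythroid low cells (83.3%, 35.9% to 99.6%) and 5 of 9 in all low cells (55.6%, 21.2% to 86.3%). Both of these intervals overlap that of the Mpo-high cells.

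Mdm4, which binds p53 and lowers its activity, was low wherever it was seen. It was detected in 2 of 9 low cells (7.76 and 21.2 RPKM), 6 of 20 middle cells (3.84 to 13.5 RPKM), 2 of 28 high cells (1.06 and 7.00 RPKM) and 4 of 9 Mpo-high cells (1.49 to 19.9 RPKM). The intervals of these shares overlap, from 2.81% to 60.0% in low cells and from 0.877% to 23.5% in high cells. Its longest transcript has 7105 bases, and 1 RPKM of that transcript corresponded to a median of 46.6 read units over the analysed cells.

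Cdkn1a, which codes for the cyclin-dependent kinase inhibitor p21, was missing from most erythroid cells and high in a few. It was at 90.5 and 252 RPKM in 2 of the 6 erythroid low cells and at 0 in the other 4. The 3 low cells with Plac8 had it at 0, 131 and 186 RPKM. It was detected in 2 of 20 middle cells (144 and 483 RPKM) and 2 of 28 high cells (10.5 and 249 RPKM), in shares of 10.0% (1.23% to 31.7%) and 7.14% (0.877% to 23.5%). Mpo-high cells had it in 6 of 9 (66.7%, 29.9% to 92.5%), at 4.41 to 107 RPKM. High cells thus included a cell as rich in Cdkn1a as the richest low cell.

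Ccng1, which codes for cyclin G1, was at 1.14, 27.8, 51.1, 98.7 and 121 RPKM in 5 of the 6 erythroid low cells, and at 0, 0 and 5.73 RPKM in those with Plac8. It was present in 3 of 20 middle cells (1.89, 8.27 and 91.2 RPKM) and 2 of 28 high cells (2.88 and 53.8 RPKM). In Mpo-high cells it was present in 5 of 9, at 7.84 to 25.5 RPKM. Most middle and high cells therefore lacked it while single cells reached the range of low cells.

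Btg2, which codes for an antiproliferative protein that recruits mRNA deadenylation, had the opposite distribution. It was at 0, 0, 1.48, 6.05, 12.8 and 62.0 RPKM in the 6 erythroid low cells and below 1 RPKM in the 3 with Plac8. In middle cells it ran from 0 to 134 RPKM with a median of 39.4 RPKM and was detected in 17 of 20 (85.0%, 62.1% to 96.8%). In high cells it ran from 0 to 215 RPKM with a median of 26.0 RPKM and was detected in 22 of 28 (78.6%, 59.0% to 91.7%). In Mpo-high cells it was detected in 3 of 9, at 3.84, 21.1 and 67.2 RPKM. Btg2 is also known as a gene of cell differentiation, and its mean was 2.40 higher in high than in low cells on the log2 scale, but run codes differed. The difference was 4.82 within SCP-170608 and -0.04 within SCP-1706013, where low cell 86 had the 62.0 RPKM.

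Bax, which codes for a protein that opens the outer mitochondrial membrane in apoptosis, was at 40.9, 46.2, 50.4, 68.0, 78.5 and 159 RPKM in the 6 erythroid low cells, and at 0, 126 and 158 RPKM in the other 3. It was found in 6 of 20 middle cells (30.0%, 11.9% to 54.3%), at 28.3 to 109 RPKM. It was found in 6 of 28 high cells (21.4%, 8.30% to 41.0%), at 21.1 to 96.2 RPKM. Unlike Trp53, Bax was thus already missing from most middle cells, and its mean log2 difference was -3.83 from low to middle cells and -0.57 from middle to high cells. Within SCP-1706013, however, Trp53 and Bax were each in 1 of 5 middle cells. The Trp53 difference of middle from low cells was -5.60 there and -0.89 within SCP-170608. In Mpo-high cells 6 of 9 had Bax, at 15.2 to 101 RPKM.

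Phlda3, which codes for a p53-induced repressor of Akt signalling, was the rarest of the 9 genes. It was at 20.8, 28.8 and 75.1 RPKM in 3 erythroid low cells, at 29.1 and 167 RPKM in 2 middle cells and at 14.8 and 47.5 RPKM in 2 Mpo-high cells. It was detected in 0 of 28 high cells, which allows a share of up to 10.7% (taken as 3 of 28 cells; the Clopper-Pearson limit is 12.3%). Phlda3 reached 1 RPKM in 7 of the 66 cells, under the 10 cells required for a call of size below.

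Rps27l, a p53-induced member of the S27 ribosomal protein family, had the highest level of the 9 genes per length of transcript in every group. It was at 754, 971, 997, 1184, 1303 and 1430 RPKM in the 6 erythroid low cells and at 577, 695 and 1382 RPKM in the other 3. In middle cells it ran from 0 to 2706 RPKM with a median of 498 RPKM, and in high cells from 0 to 622 RPKM with a median of 101 RPKM. The high cells and the 6 erythroid low cells did not overlap. The same held for the ribosomal protein genes Rpl11 (highest 143 against lowest 332 RPKM) and Rpl5 (109 against 364 RPKM). How many of all genes are separated in this way was not counted. Rps27l was detected in 19 of 20 middle and 20 of 28 high cells (71.4%, 51.3% to 86.8%), and in all 9 Mpo-high cells at 425 to 1376 RPKM. Its relative Rps27, which encodes a core ribosomal protein, moved alongside, with medians of 1078 RPKM in low, 704 RPKM in middle, 136 RPKM in high and 808 RPKM in Mpo-high cells.

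**Figure D3:**
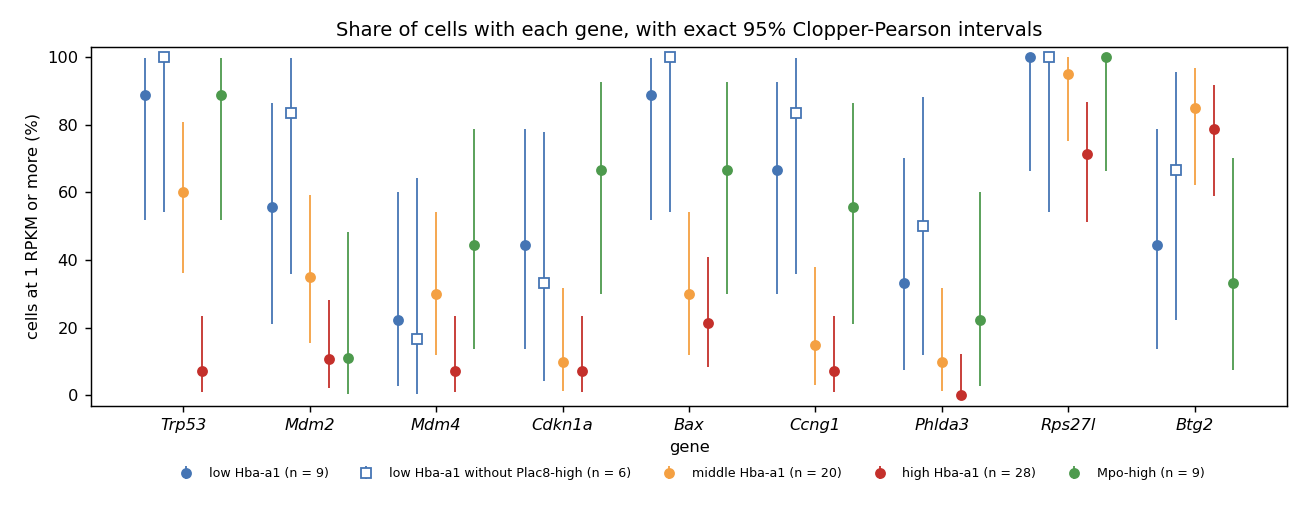
Share of cells at 1 RPKM or more (vertical axis, percent) for each of the 9 genes in the low, middle, high and Mpo-high groups, with squares for the 6 low cells without Plac8; bars give 95% intervals by the exact Clopper-Pearson method, for counting error alone. Trp53 drops from 88.9% of low to 7.14% of high cells, while Btg2 is at 44.4% and 78.6%.

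The 9 genes were next set against all genes. By the size rule a gene is lower or higher where the means of its log2 values are 1 or more apart and every run code that has 3 or more cells of each group shows that direction. It was applied to 5686 genes detected in 10 or more of the 66 cells, a filter that 8 of the 9 genes passed. Between high and low cells 5 of these 8 were lower (Trp53 -6.08, Rps27l -4.79, Bax -4.41, Ccng1 -2.83 and Mdm2 -2.19), as were 64.8% of all genes tested, and 0 of 8 were higher, against 2.76%. The share of the 9 genes is thus near the background, since most genes were lower in the globin-rich cells. The median difference was -2.82 over the 9 genes and -2.09 over all genes tested. Measured from that median Trp53 stood at -3.99, Rps27l at -2.70, Bax at -2.32, Mdm2 at -0.10 and Btg2 at 4.49.

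Cdkn1a (-2.82), Phlda3 (-1.70), Mdm4 (-0.79) and Btg2 (2.40) were not called in this comparison. For Cdkn1a the direction turned within SCP-1706013, with a difference of 0.59 from 3 low cells that were all at 0. By size alone, without the codes, Cdkn1a was lower as well (6 of 8, against 73.9% of all genes) and Btg2 was higher (1 of 8, against 3.73%), an alternative chosen after seeing the data. With the 6 erythroid low cells the same 5 genes were called, at -6.80 for Trp53, -4.92 for Rps27l, -4.84 for Bax, -3.93 for Ccng1 and -3.58 for Mdm2, where 70.3% of all genes were lower and 2.18% higher. RPKM values are relative, so the cells were also rescaled after removing the globin genes. From the median of all genes, Trp53 then stood at -4.43, Bax at -2.42, Rps27l at -1.90 and Btg2 at 5.94. Rescaling each cell to a total of 1000000 moved the median of all genes by -0.51, and Mdm2 then stood 0.01 above it.

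Between middle and low cells the same 5 genes were lower, Bax at -3.83, Trp53 at -2.84, Ccng1 at -2.51, Rps27l at -1.60 and Mdm2 at -1.38, where 43.3% of all genes were lower and 4.33% higher. With the 6 erythroid low cells these 5 genes were again lower, with 55.2% of all genes lower and 3.61% higher. By size alone Cdkn1a (-2.38) was lower too, against 52.7% of all genes, and Btg2 (3.09) higher, against 6.33%. Between high and middle cells 2 of 8 were lower, Trp53 at -3.24 and Rps27l at -3.19, where 36.2% of all genes were lower and 0.352% higher. These comparisons share cell groups and are not separate evidence. Trp53 and Rps27l were in this way lower at both steps, and Bax, Ccng1 and Mdm2 at the first. Measured from the median of all genes, Rps27l stood at -0.51 at the first step. It stood at -0.14 there once the globin genes were removed and the cells rescaled. For Rps27l the first step was under the size limit in 3 alternatives, at -0.44 with lower Hba-a1 limits, -0.53 with non-erythroid cells kept and -0.89 with a gene minimum of 2000. Within run codes the Trp53 difference between high and middle cells was -4.74 in SCP-170608, -3.82 in SCP-1706080 and -0.27 in SCP-1706013, where 1 of 5 middle cells and 1 of 6 high cells had Trp53.

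Between Mpo-high and low cells 2 of 8 were lower, Mdm2 at -2.18 and Bax at -1.81, where 20.1% of all genes were lower and 16.4% higher. The median was -0.67 over the 9 genes and -0.16 over all genes tested. Against the 6 erythroid low cells 4 of 8 were lower (Mdm2 -3.57, Bax -2.24, Ccng1 -1.95 and Trp53 -1.60), as were 33.9% of all genes (16.8% were higher), by size alone, since no run code then had 3 cells in both groups. Cdkn1a was 0.78 higher in Mpo-high cells in that comparison and at -0.04 with all 9 low cells. The Mpo-high cells are thus marrow cells with Trp53, Bax, Rps27l, Cdkn1a and Ccng1 mRNA in most of them and Mdm2 in 1.

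**Figure D4:**
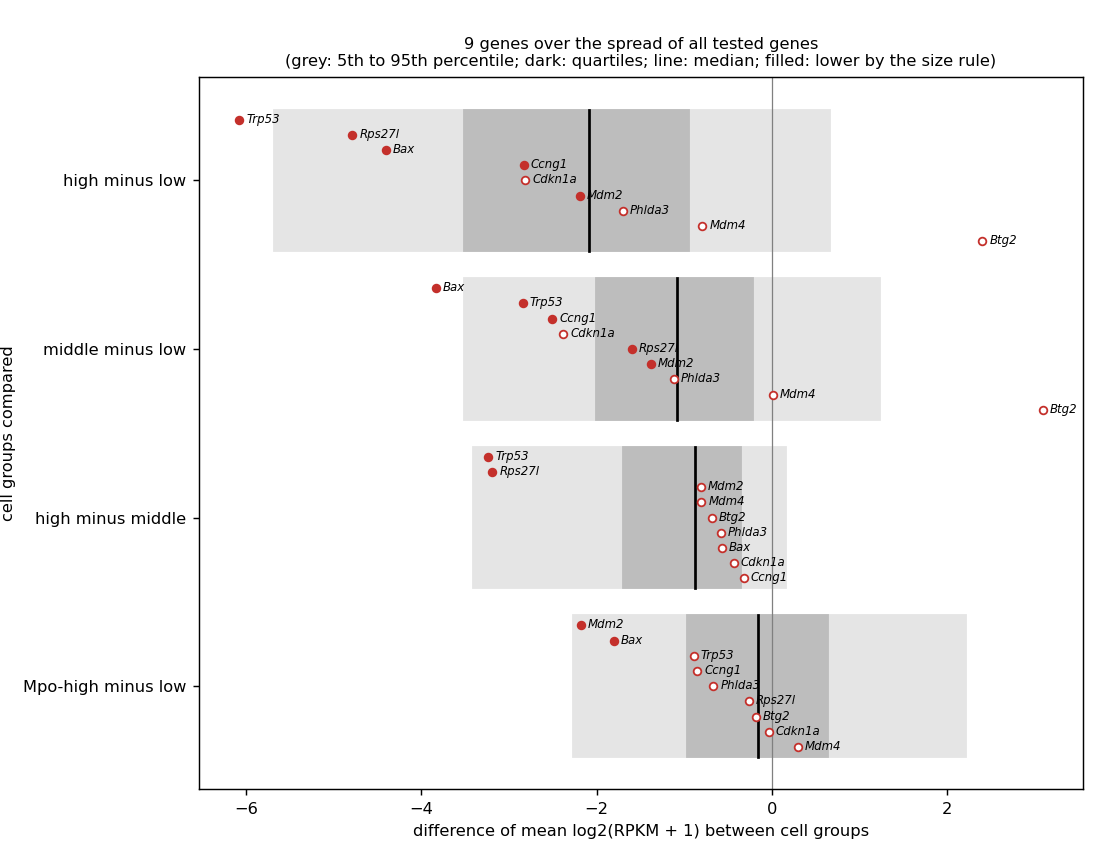
Difference of mean log2(RPKM + 1) for the 9 genes (horizontal axis) in 4 comparisons of cell groups (vertical axis), drawn over the range of 5686 tested genes (grey from the 5th to the 95th percentile, dark for the quartiles, line for the median). Filled points were lower by the size rule; Between high and low cells Trp53 lies at -6.08 and Btg2 at 2.40, outside the grey range of -5.69 to 0.67 on opposite sides.

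Other genes of the pathway were read from lists of targets and regulators. Of 29 further p53 targets all were measured and 9 passed the filter. Between high and low cells 2 of these 9 were lower, Apaf1 (-1.54), which codes for the apoptosome scaffold, and Psrc1 (-1.86), which codes for a spindle protein, and Ptp4a3 (2.25), which codes for a tyrosine phosphatase, was higher, against 64.8% and 2.76% of all genes. Between Mpo-high and low cells Psrc1 (-2.19) and Gtse1 (-1.55), which codes for a microtubule-binding protein that restrains p53, were lower and Ptp4a3 (1.56) was higher, against 20.1% and 16.4% of all genes. Between middle and low cells Apaf1 (-1.11) was lower and Ckap2 (2.37), which codes for a spindle protein, was higher, against 43.3% and 4.33% of all genes. Between high and middle cells Psrc1 (-1.29) was lower, where 36.2% of all genes were lower and 0.352% higher. With the 6 erythroid low cells, Sesn1 (-1.54) and Gadd45a (-1.22), both stress-response genes, were also lower in high cells, and Gadd45a (-2.17) in Mpo-high cells. The shares of all genes lower were then 70.3% and 33.9%. The apoptosis genes Bbc3, Pmaip1 and Fas, widely used as p53 targets, did not pass the filter, and Fas was at 1 RPKM or more in 0 of the 66 cells.

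Of 23 regulators of p53, 22 were measured and 15 passed the filter. Between high and low cells 8 of the 15 were lower and 0 higher, against 64.8% and 2.76% of all genes, so the share lower was not above the background. The largest differences were in the nucleolar proteins Npm1 (-7.66) and Ncl (-4.98), which can bind Mdm2. The others were the ubiquitin ligases Rchy1 (-2.83) and Ube3a (-1.72), the checkpoint kinases Chek2 (-1.64) and Chek1 (-1.24), the deubiquitinase Usp10 (-1.53) and the phosphatase Ppm1d (-1.04). Between Mpo-high and low cells Ppm1d (-1.76) and the deubiquitinase Usp7 (-1.28) were lower, and Usp10 (1.30) and the kinase Hipk2 (1.14) were higher. Of all genes 20.1% were lower and 16.4% higher there. Middle cells had 3 of the 15 regulators lower than low cells (Npm1 -4.79, Ncl -2.07 and Ube3a -1.64). They had 3 higher, the mitotic kinase Aurka (4.11), Hipk2 (1.28) and Usp7 (1.08), where 43.3% of all genes were lower and 4.33% higher. High cells had 8 of the 15 lower than middle cells and 0 higher, where 36.2% of all genes were lower and 0.352% higher. Among the 8 were Aurka (-2.13), Hipk2 (-1.11) and Usp7 (-1.77). With the 6 erythroid low cells the same regulators were lower in high cells except Ppm1d, where 70.3% of all genes were lower. Chek2 (-1.55), Rchy1 (-1.36) and Aurka (-1.56) then joined those lower in Mpo-high cells, where 33.9% of all genes were lower. Rpl11 and Rpl5, whose proteins hold back Mdm2, were lower in high than in low cells, at -6.82 and -6.97 on the log2 scale. Rpl11 had a median of 491 RPKM in low, 206 RPKM in middle, 0.26 RPKM in high and 364 RPKM in Mpo-high cells.

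The number of the 9 genes found in 1 cell followed the number of all genes found. It was 5 at the median in low cells (3 to 9) and 6.5 in the 6 with erythroid markers, 3.5 in middle cells (1 to 9), 2 in high cells (1 to 5) and 5 in Mpo-high cells (2 to 8). The 57 low, middle and high cells differed in depth and in genes detected. Across them the Spearman correlation between the number of the 9 genes and the number of all genes detected was 0.74. It was 0.55 in the 20 middle cells and 0.37 in the 28 high cells. At 6 or more of the 9 genes there were 4 low, 3 middle, 0 high and 3 Mpo-high cells.

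**Figure D5:**
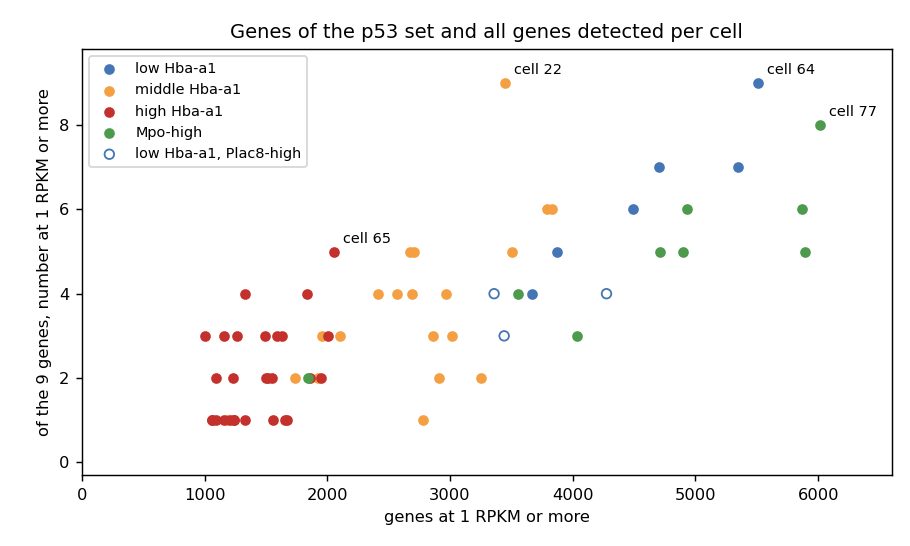
Number of the 9 genes at 1 RPKM or more (vertical axis) against the number of all genes at 1 RPKM or more (horizontal axis) in 66 cells, coloured by group, with open circles for the 3 low cells with Plac8. Most points rise together; cell 22 has all 9 genes with 3446 genes detected, and cell 64 has all 9 with 5507.

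Both cells with all 9 genes were erythroid by markers. Cell 22, a middle cell with 180178 RPKM of Hba-a1, had Trp53 at 35.2, Mdm2 at 31.7, Mdm4 at 9.92, Cdkn1a at 483, Bax at 55.6, Ccng1 at 91.2, Phlda3 at 167, Rps27l at 2706 and Btg2 at 95.8 RPKM. Its Cdkn1a, Phlda3 and Rps27l were the highest of the 54 low, middle and high cells without Plac8, followed by 252, 75.1 and 1430 RPKM in other cells, while its Trp53 was below the median of the 12 middle cells with Trp53 (60.3 RPKM). It also had 15 of the 29 further targets at 1 RPKM or more, where the median middle cell had 4.5. Plk2 at 51.8, Polk at 37.8, Trp53inp1 at 66.1, Gtse1 at 94.1 and Psrc1 at 117 RPKM were each the highest in middle cells. Of the 15, cell 22 had Apaf1, Sesn2, Tnfrsf10b, Ei24, Ckap2 and Zmat3 at only 1.1 to 3.2 RPKM. Its 3446 genes lay within the middle group, and it had 1 neutrophil marker and 0 monocyte markers at 10 RPKM or more. Whether its chamber held more than 1 cell was not tested.

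Cell 64, a low cell with 3163 RPKM of Hba-a1, had Trp53 at 349, Mdm2 at 21.6, Mdm4 at 7.76, Cdkn1a at 252, Bax at 40.9, Ccng1 at 121, Phlda3 at 75.1, Rps27l at 1184 and Btg2 at 6.05 RPKM, and 7 of the further targets. It had the highest Trp53 and Ccng1 of the same 54 cells, and also the most genes detected among low cells, 5507. Among high cells, cell 65 stood out with Cdkn1a at 249, Bax at 36.6, Ccng1 at 53.8, Rps27l at 622 and Btg2 at 77.1 RPKM and Trp53 at 0. These 3 cells hold the 3 highest Cdkn1a values of the erythroid groups.

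Co-detection was counted for all 36 pairs of the 9 genes. In the 57 low, middle and high cells Trp53 and Bax were found together in 11 cells, Trp53 without Bax in 11, Bax without Trp53 in 9 and neither in 26. Trp53 and Mdm2 were together in 11, with Mdm2 alone in 4. Trp53 and Ccng1 were together in 8, with Ccng1 alone in 3. Phlda3 was the one gene of the other 8 that was in no cell without Trp53, and its 5 cells all had Trp53, Bax, Ccng1 and Rps27l. Cdkn1a was found with Trp53 in 4 cells and without it in 4.

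All 22 cells with Trp53 also had Rps27l, which was found in 26 cells more. Among the middle cells, 7 of the 12 with Trp53 had at least 1 of the 4 genes Cdkn1a, Mdm2, Ccng1 and Phlda3, and 1 of the 8 without Trp53 did. Among high cells these were 0 of the 2 with Trp53 and 5 of the 26 without. Bax, not one of these 4, was in 4 of the 12 middle cells with Trp53 and 2 of the 8 without. Of the 4, Mdm2 was in 6 and 1 of these cells, Ccng1 in 3 and 0, Phlda3 in 2 and 0 and Cdkn1a in 1 and 1. The grouping of the 4 was not part of the count of pairs. The middle cells with Trp53 had more genes detected at the median, 2993.5 against 2326.5, and less Hba-a1, 221687 against 342832 RPKM. The part of these gaps in the difference was not tested. In Mpo-high cells Trp53 and Cdkn1a were together in 5 of 9 and Trp53 and Bax in 6.

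Genes with a pattern like that of Trp53 were ranked by Spearman correlation over the same 57 cells among the 4426 genes detected in 10 or more of them. The 5 highest were Eif3e (0.86), which codes for a subunit of a translation initiation factor, Rsl1d1 (0.80), Rpl15 (0.78), Dpm3 (0.77) and Cfdp1 (0.76). Eif3e was found in all 22 cells with Trp53 and in 7 without it, and it was also first, at 0.86, over the 54 cells without Plac8, where Stard10 (0.82), Btf3l4 (0.78), Rsl1d1 (0.77) and Abhd16a (0.77) came next. The median over all genes was 0.37, and the correlation of Trp53 with the number of genes detected was 0.73. The cells differed in depth and in the number of genes detected. Among the other genes of the set Rps27l ranked 126 (0.69), Mdm2 1727 (0.43), Ccng1 2252 (0.37), Mdm4 2383 (0.35), Bax 2993 (0.26) and Btg2 4249 (-0.11). Cdkn1a, found in 8 of the 57 cells, and Phlda3, found in 5, were under the 10 cells required and were not ranked.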

How the data were processed

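Values in RPKM of 96 cells were deposited by the authors as 1 table of 34899 transcripts. The submitters' processing notes name TopHat2 2.0.9 and build mm9 and are the source for both. The counter, its annotation and its filters are not stated. Each gene was given its highest transcript, and the log2(RPKM + 1) scale was used, on which low genes show too small a difference. Depth was estimated from the steps between low values. A unit may be 1 read or 1 pair. In the analysed cells depth ran from 1519 to 11609 in units of 1000, and 1 RPKM of Trp53 was worth a median of 12.3 units. Amplified reads are not independent molecules, so intervals cover counting error only.

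Named were all 9 genes, listed targets and regulators past the size rule between high or Mpo-high and low cells (those named for other comparisons were added after seeing values), Rpl11, Rpl5, Rps27 and the 5 genes most like Trp53. The genes, lists and groups were chosen with earlier results of these data known. A cell outside the Mpo-high group was set aside with at least 3 and at least 50% of a non-erythroid list at 10 RPKM, or with fewer than 3 late progenitor and 3 erythroblast markers. No doublet caller was run. Run codes come from the sample descriptions and in part differ from the code in the titles. The difference script was tested on simulated data. Python 3.11.15, pandas 2.3.3, numpy 2.4.6, scipy 1.17.1 and matplotlib 3.10.9 were used. RefSeq and GENCODE sequences are of GRCm38, so no mm9 coordinates are given.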

Additional observations from a re-analysis of the deposited data

Results flagged for a closer look

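The 9 genes were searched in the low and Mpo-high groups, of 9 cells each, for a gap between the lowest or highest cell and all the others. The gap was larger than Dixon's limit in 3 cases. For normally distributed values chance gives such a gap in about 1 in 20 groups. Many values here were 0 (Mdm2 in 6 of 9 Mpo-high cells), so that rate need not hold. Trp53 was 0 in low cell 60 and Bax was 0 in low cell 68, both cells with Plac8 and without erythroid markers, while the other 8 low cells had each gene. Mdm2 in Mpo-high cell 50 was 12.2 RPKM, and the other 8 cells were below 1 RPKM.

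The cells left out of the comparisons also held some of the 9 genes. Among the 27 cells with fewer than 1000 genes, the highest values of 5 genes that rested on more than 3 read units were Trp53 at 161 RPKM in cell 28, Mdm4 at 23.7 RPKM in cell 92, Cdkn1a at 13.5 RPKM in cell 55, and Ccng1 at 514 and Rps27l at 3620 RPKM in cell 62. Btg2 reached 155 RPKM in cell 35, for which no depth could be estimated. Among the 3 cells set aside, the highest were Mdm2 at 41.1 and Rps27l at 822 RPKM in cell 33, and Bax at 186, Ccng1 at 94.6 and Btg2 at 70.3 RPKM in cell 56. With no control cells, these are given as values above the limit that a count of 0 allows.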

How the results depend on the processing

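The median difference of the 9 genes between high and low cells was -2.82, and it was -0.94 with a gene minimum of 2000, where 2 high cells were left, -4.03 with a pseudocount of 0.1 and -1.28 with 10. The count of genes lower there (5) was 3 at that gene minimum, and the genes found per high cell (2) were 4. The median between Mpo-high and low cells (-0.67) turned to 0.22 with a gene minimum of 500. The count lower there (2) was 1 with that minimum or a pseudocount of 10, 0 without run code SCP-1706080, and 4 without the low cells with Plac8, an alternative chosen after seeing the data. The count lower between middle and low cells (5) was 3 with non-erythroid cells kept by their Hba-a1. Without SCP-1706080 or without SCP-170608 the cells with Trp53 and Bax were 7 each time (11 with all), and those with 6 or more of the genes were 4 (7 with all). Of all genes, 64.8% were lower between high and low cells, 42.5% with a pseudocount of 10 and 17.1% with no filter on low values; between middle and low cells these were 43.3%, 24.4% and 11.6%. Between Mpo-high and low cells (20.1%) the share ran from 5.62% with no filter to 39.2% without SCP-170608. The causes were not tested. Fewer cells were kept with the gene minimum of 2000, without a run code and without the low cells with Plac8. More were kept with the gene minimum of 500 and with non-erythroid cells kept. The pseudocounts and the setting with no filter left the cells unchanged. The other 225 recomputed summaries stayed within the spread over cells or within 1.5 times the count, as did 571 values of single genes or of all genes, and 29 did not. Of these 16 were Rps27l, whose difference ran from -6.23 to -2.82 between high and low cells and from -2.83 to -0.44 between middle and low cells. No paired analysis was possible because all cells are in 1 group and each has its own number. With 9 low cells, shares of cells have wide intervals (51.8% to 99.7% for Trp53), and zeros cannot be told from missed mRNA.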

Other observations

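Among the further p53 targets, some were found mainly in Mpo-high cells, and they are named here after their values were seen. Xpc, which codes for a DNA damage sensor of nucleotide excision repair, was at 1 RPKM or more in 5 of 9 Mpo-high cells (10.1 to 86.0 RPKM) and in 0 of 57 low, middle and high cells, which allows a share of up to 5.26% (taken as 3 of 57 cells; the Clopper-Pearson limit is 6.27%). Dcxr, which codes for a sugar reductase, was found in 5 of 9 Mpo-high cells (11.7 to 175 RPKM) and in 3 of the 57. Ei24, which codes for a membrane protein of the endoplasmic reticulum, was found in 4 of 9 (15.1 to 95.6 RPKM) and in 4 of the 57. All 3 were under the 10 cells required for a call of size. Gpx1, which codes for a glutathione peroxidase, was present in all 66 cells, with medians of 3909 RPKM in low, 6973 RPKM in middle, 6708 RPKM in high and 4044 RPKM in Mpo-high cells.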
